A study of Mus musculus with 4 samples.

Results

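The genes described here are those of epithelial cell junctions, claudins, keratins and the factors that act with them: 45 listed genes. They were picked by name for their part in epithelia, with earlier results of these data known, and no threshold on a measured value was used. All 45 had at least 1 probe set on the arrays, and they made up 45 of the 18193 genes and 90 of the 45037 probe sets measured. They were divided by structure into 16 tight junction genes, 7 keratins, 6 desmosome genes, 5 polarity genes, 7 transcription and splicing factors and 4 membrane proteases and inhibitors.

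The samples were cultures of E14, a line of mouse embryonic stem (mES) cells. The study cloned its short hairpin RNAs (shRNAs) into pSuper.puro, a plasmid that drives such an RNA and a puromycin resistance gene. For the control RNAi samples, its array methods name a control shRNA, while its PCR figures name the empty pSuper.puro vector. The Zfp322a RNAi samples carried the plasmid with an shRNA against Zfp322a, which encodes a zinc finger protein of mES cells. All samples were grown with serum and leukaemia inhibitory factor (LIF), transfected with Lipofectamine and put under puromycin, for 3 days by the labels and for longer by the methods of the study. Each group held 2 samples, with 1 Affymetrix MG430 2.0 array a sample. Which shRNA the array samples carried is not given in the labels, so that effects of the hairpin other than on its target cannot be told apart from depletion. Nor do they say if replicates were separate cultures. The p-values then cover only the spread between the samples at hand, which may be technical.

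Epithelial cells are joined to their neighbours by tight junctions, which seal the space between cells, by adherens junctions, which are built on cadherins, and by desmosomes, which anchor keratin filaments. Claudins and occludin span the membrane at tight junctions and are tied to actin by ZO scaffold proteins. mES cells grow as compact colonies that share several of these features with epithelium, E-cadherin among them, and the simple epithelial keratins Krt8 and Krt18 mark the first epithelium of the embryo, the trophectoderm.

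Levels are log2 RMA values (RMA subtracts background, makes the distributions of the arrays alike and summarises the probes of a probe set), so a difference of 1 on this scale is a doubling. Each gene was read from its brightest probe set, and changes are Zfp322a RNAi minus control RNAi on the log2 scale, ± the standard error (SE) from limma with n = 2 arrays per group. A gene was called higher or lower where its two-sided limma p, with Benjamini-Hochberg adjustment over all 18193 genes, was under 0.05. Zfp322a itself read 8.75 and 8.84 on the control RNAi arrays and 7.53 and 7.13 on the Zfp322a RNAi arrays, which left 36.2% of the control level (-1.47 ± 0.14, adjusted p = 0.00158, limma). The medians of the arrays lay between 6.07 and 6.11, and the Pearson correlation over probe sets was 0.998 within each group and 0.989 to 0.990 across the groups. The mES cell genes Pou5f1, Nanog, Sox2 and Zfp42 read between 12.50 and 12.93 on all 4 arrays and did not pass the test. The study itself reports lower mRNA of these genes by PCR. They belong to a list of 10 mES cell markers, of which 3 fell, 0 rose and 7 did not pass. Those that fell were Utf1 (-0.65), Tdgf1 (-0.59) and Esrrb (-0.41), with adjusted p of 0.00274, 0.00261 and 0.00755 (limma). No array stood apart from its group.

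Zfp322a depletion was accompanied by lower levels of 22 of the 45 epithelial genes and a higher level of 1, Ocln, while 22 did not pass the test. The share called was 51.1% in all, 48.9% lower and 2.22% higher. Of all 18193 genes, 28.4% were called, 14.4% lower and 14% higher. The median change of the 45 genes was -0.25, against -0.04 for all genes, and 80.0% of them had a negative change, against 57.7% of all genes. The 45 were picked with earlier results of these data known, so these comparisons do not test if epithelial genes fell more than others. Bright genes were called more often than dim ones: among genes at or above the median level of 7.06, 44% were called in either direction and 21.3% as lower. The 27 epithelial genes in that range held 16 called lower (59.3%) and 0 called higher, with 11 further genes that did not pass. Of the 18 dimmer ones, 6 were called lower and 1 higher (38.9%), where 12.7% of all such genes were called in either direction and 7.5% as lower. Both Zfp322a RNAi arrays lay beyond both control RNAi arrays for 33 of the 45 genes (73.3%), against 62.6% of all genes. The study's methods used a 1.5-fold rule with no test, which 9 of the 45 genes met as lower and 0 as higher. Of all genes 8.25% met it, 3.2% as lower and 5.05% as higher. These cultures were measured as a whole, so that fewer cells with a given RNA and less of that RNA in each cell cannot be told apart.

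**Figure D1:**
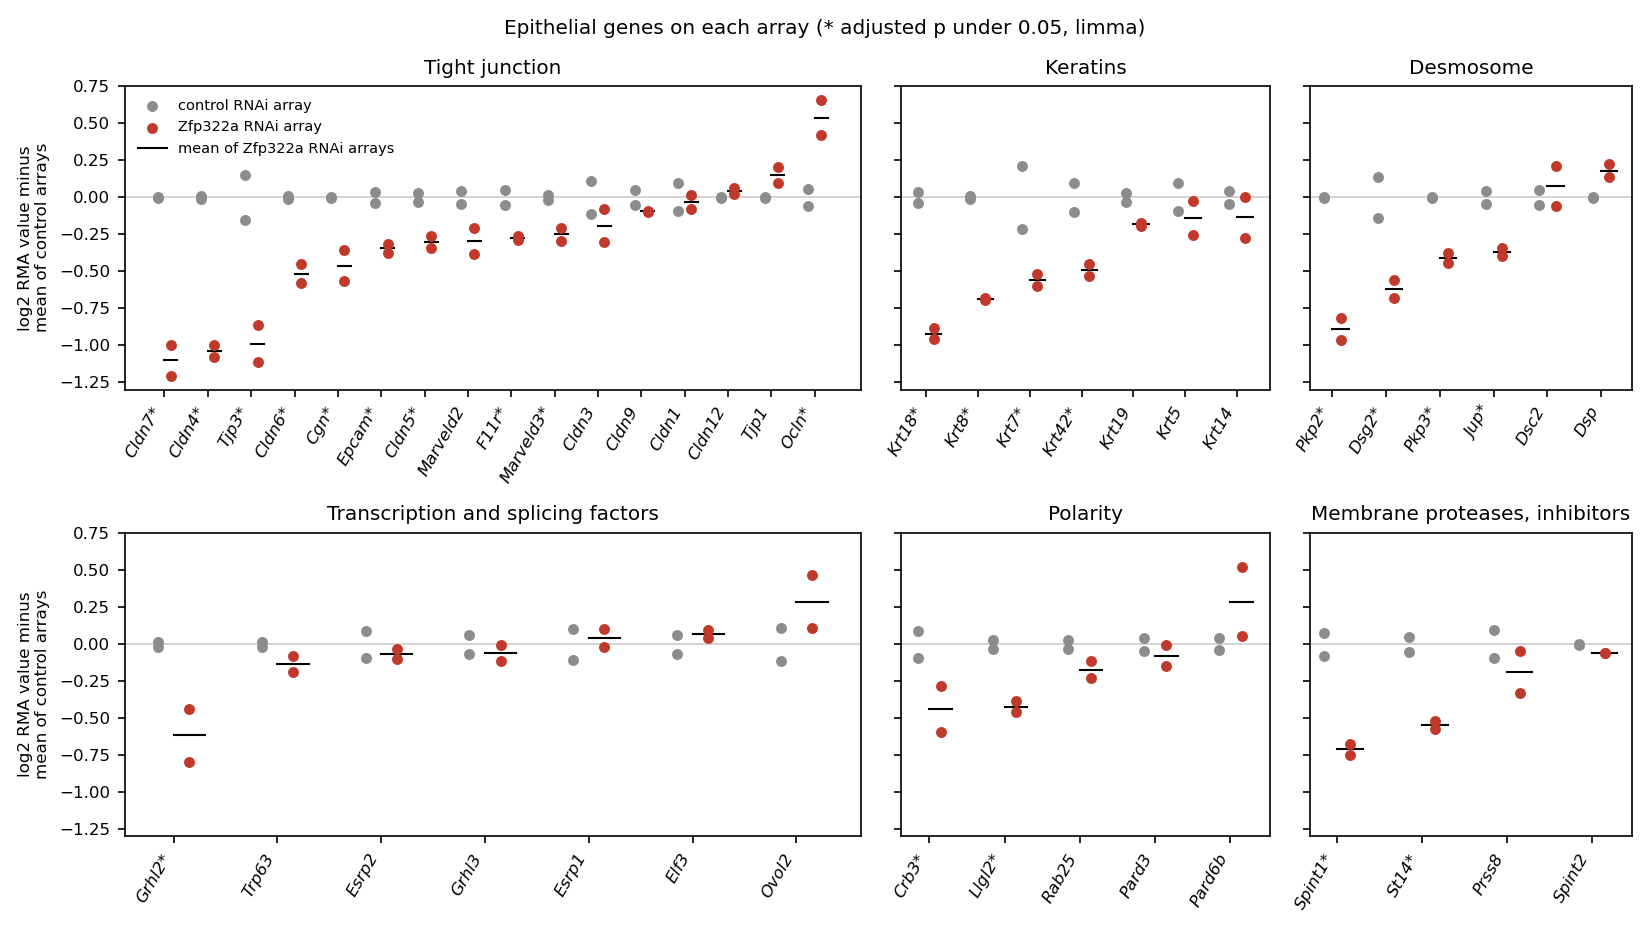
Each panel plots the genes of 1 structure, 45 in all, with each array as a point on the y axis (log2 RMA value minus the mean of the control RNAi arrays of that gene) and the black bar at the mean of the 2 Zfp322a RNAi arrays. The lower points of Cldn7, Cldn4, Tjp3, Krt18 and Pkp2 stand well under their controls (means from -1.10 to -0.89), Ocln stands above (0.54), and 6 of the 7 transcription and splicing factors lie between -0.13 and 0.29.

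Promoters of 6 genes are given first, chosen after their values were seen to set neighbouring genes that changed alike or apart beside each other. Promoter windows of 250 bases before to 50 bases after the annotated start were taken from RefSeq (build GRCm38.p6), which gave 39 windows for 31 of the 45 genes. Each is written in the direction of the gene, 5′ to 3′, with matches to the E-box CACCTG (or CAGGTG on the other strand), the core of the ZEB and SNAI sites, in capitals. Cldn4 and Cldn3 are neighbours on chromosome 5, Krt8 and Krt18 on chromosome 15, and Cldn7 and Ocln are the claudin with the largest fall and the sole gene called higher.
Cldn4 (chr5:134946885-134947184, minus strand): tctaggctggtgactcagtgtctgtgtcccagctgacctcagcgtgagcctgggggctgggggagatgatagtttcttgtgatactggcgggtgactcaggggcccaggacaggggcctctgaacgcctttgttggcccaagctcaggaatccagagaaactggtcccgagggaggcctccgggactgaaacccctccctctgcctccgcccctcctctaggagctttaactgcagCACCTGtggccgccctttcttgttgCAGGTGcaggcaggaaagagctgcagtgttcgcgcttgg
Cldn3 (chr5:134985964-134986263, plus strand): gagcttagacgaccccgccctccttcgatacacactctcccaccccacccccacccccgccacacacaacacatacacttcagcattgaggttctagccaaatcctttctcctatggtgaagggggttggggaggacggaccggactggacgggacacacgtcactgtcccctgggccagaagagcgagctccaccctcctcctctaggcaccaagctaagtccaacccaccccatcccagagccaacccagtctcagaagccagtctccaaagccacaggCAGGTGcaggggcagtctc
Cldn7 (chr11:69965171-69965470, plus strand): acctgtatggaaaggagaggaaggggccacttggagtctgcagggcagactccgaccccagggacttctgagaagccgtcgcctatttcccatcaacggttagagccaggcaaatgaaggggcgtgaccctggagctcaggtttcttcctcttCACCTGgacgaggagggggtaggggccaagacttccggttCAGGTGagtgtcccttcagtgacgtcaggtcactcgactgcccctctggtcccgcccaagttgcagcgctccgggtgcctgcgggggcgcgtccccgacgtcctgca
Krt8 (chr15:102004293-102004592, minus strand): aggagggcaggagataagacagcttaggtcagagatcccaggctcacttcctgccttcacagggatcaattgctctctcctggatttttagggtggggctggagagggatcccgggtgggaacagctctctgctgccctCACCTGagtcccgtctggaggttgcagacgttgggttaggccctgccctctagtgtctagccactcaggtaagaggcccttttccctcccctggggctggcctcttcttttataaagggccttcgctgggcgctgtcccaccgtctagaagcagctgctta
Krt18 (chr15:102027966-102028265, plus strand): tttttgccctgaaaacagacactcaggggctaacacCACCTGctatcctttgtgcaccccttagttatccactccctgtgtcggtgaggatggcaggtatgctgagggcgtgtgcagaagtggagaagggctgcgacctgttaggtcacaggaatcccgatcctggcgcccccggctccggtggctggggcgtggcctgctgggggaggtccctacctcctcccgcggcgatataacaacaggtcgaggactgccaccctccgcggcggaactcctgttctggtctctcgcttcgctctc
Ocln (chr13:100552669-100552968, minus strand): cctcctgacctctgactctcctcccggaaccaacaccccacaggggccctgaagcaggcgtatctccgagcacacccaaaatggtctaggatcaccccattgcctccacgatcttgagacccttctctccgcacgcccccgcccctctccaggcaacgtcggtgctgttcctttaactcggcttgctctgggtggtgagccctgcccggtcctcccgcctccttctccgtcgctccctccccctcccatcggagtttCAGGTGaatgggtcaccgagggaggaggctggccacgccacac

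Every window printed here holds the E-box. Cldn7 has a further window, which holds none, and Ocln has a further window, with matches that begin 213 and 68 bases before its start. In Cldn4 the matches begin 14 bases before and 11 bases after the start, and in Cldn7 they begin 97 and 57 bases before it. Krt8 has a match that begins 111 bases before the start and Krt18 one that begins 214 bases before it. At least 1 E-box was found in 21 of the 31 genes with a window (67.7%), against 22.9% of the 14452 measured genes with a window. In windows, this was 25 of 39 for the epithelial genes, against 20.2% of all 32851 windows of the table. It was present in 10 of the 15 genes called lower and in 11 of the other 16, Cldn3 and Ocln included.

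Other motifs were searched on both strands in the same windows. The grainyhead-like (GRHL) motif AACNNGTT was found in 3 genes, Cgn, Cldn5 and Rab25, against 4.3% of measured genes, and the first 2 of these were called lower. The GC box GGGCGG was found in 22 of the 31 genes (57.3% of measured genes), the AP-2 motif GCCNNNGGC in 14 (25.4%) and the TATA box TATAAA in 4 (11.5%). Of the 15 genes called lower, 11 held a GC box, 5 an AP-2 motif and 2 a TATA box. In all windows of the table the shares were 4.2% for the GRHL motif, 35.7% for the GC box, 16.6% for AP-2 and 13.6% for the TATA box. A match is a run of letters and not a bound site, and these counts were not tested.

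Tight junction genes fell in 9 of 16 cases, rose in 1 and did not pass in 6, with a median change of -0.28. The share called was 62.5%, against 28.4% of all genes. Among the 8 claudins, which form the strands of the junction, 4 were called lower and 0 higher. Cldn7, a claudin of the lateral membrane that binds EpCAM, read 7.19 and 7.18 on the control RNAi arrays and 5.98 and 6.19 on the Zfp322a RNAi arrays. Both depleted samples lay far below both controls, at 46.7% of the control level (-1.10 ± 0.09, 95% interval -1.32 to -0.88, adjusted p = 0.00125, limma). Cldn4, a claudin of tight epithelia, went from 9.40 and 9.38 to 8.39 and 8.31. This was 48.6% of the control level (-1.04 ± 0.07, adjusted p = 9.79e-04, limma), the lowest adjusted p of the 45 genes. Cldn6, a claudin of embryonic epithelia and of pluripotent cells, read 6.94 and 6.92 against 6.35 and 6.48 (-0.52 ± 0.08, adjusted p = 0.00558, limma), and Cldn5, the main claudin of blood vessel endothelium, changed by -0.30 ± 0.07 (adjusted p = 0.0274).

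The other claudins did not pass the test. The probe set used for Cldn3 overlapped between the groups, with 7.48 and 7.26 against 7.07 and 7.29 (-0.19 ± 0.11, 95% interval -0.47 to 0.09). Cldn3 is the neighbour of Cldn4, yet its interval does not reach the change of Cldn4. The other probe sets of Cldn3 changed by -0.21, -0.17 and -0.08 and did not pass, without overlap for those at -0.21 and -0.17. Cldn9, the neighbour of Cldn6, changed by -0.10 ± 0.07 (interval -0.27 to 0.08), and this interval does not reach the change of Cldn6. However, Cldn9 read 5.48 to 5.63, below the array medians on all 4 arrays, where a fall may not show. Cldn12 (0.05) and Cldn1 (-0.03) were near 0, with Cldn1 likewise below the array medians (4.75 to 4.94). The differences between neighbours were not tested as such.

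Of the junction proteins other than claudins, the scaffold gene Tjp3 (ZO-3) had the largest change. It read 6.84 and 7.15 on the control RNAi arrays and 5.88 and 6.13 on the Zfp322a RNAi arrays, without overlap, and was left at 50.3% (-0.99 ± 0.13, adjusted p = 0.00422, limma). Tjp1 (ZO-1), its paralogue and the widely expressed ZO protein, went the other way by 0.15 ± 0.07 and did not pass (95% interval -0.03 to 0.33, adjusted p = 0.190). The interval of Tjp1 lies above that of Tjp3, which runs from -1.32 to -0.66. Cgn (cingulin), a protein of the cytoplasmic plaque, read 7.47 and 7.46 against 6.90 and 7.11 (-0.46 ± 0.09, adjusted p = 0.0140, limma).

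Epcam, a membrane glycoprotein of epithelia that is abundant in mES cells, went from 10.67 and 10.74 to 10.39 and 10.33. The groups did not overlap and the level remained at 78.7% of the control (-0.34 ± 0.07, adjusted p = 0.0167, limma). F11r (JAM-A), an immunoglobulin-like adhesion molecule, changed by -0.28 ± 0.07 (adjusted p = 0.0371), and Marveld3, a protein with a MARVEL domain like occludin, by -0.25 ± 0.07 (adjusted p = 0.0472). Array centring ended both calls (adjusted p of 0.0576 and 0.0722, limma), and that of Marveld3 also ended with quantile normalization, with the mean of its probe sets and with a variance trend (0.0567 to 0.0851). Marveld2 (tricellulin), which sits where 3 cells meet, changed by -0.29 ± 0.09 and missed the threshold (adjusted p = 0.0543, limma), though its arrays did not overlap.

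Ocln (occludin) was the sole epithelial gene called higher. The probe set used read 5.93 and 5.81 on the control RNAi arrays and 6.53 and 6.29 on the Zfp322a RNAi arrays, or 1.45-fold (0.54 ± 0.10, adjusted p = 0.0125, limma). A second probe set of Ocln read 6.02 and 5.45 against 5.69 and 5.56, with overlap and a change of -0.11. With the mean of both probe sets the change was 0.22 and did not pass (adjusted p = 0.271), so that the rise of Ocln rests on 1 probe set. Ocln lies beside Marveld2 on chromosome 13.

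Keratins, the intermediate filament proteins of epithelia, fell in 4 of 7 cases and rose in 0, with a median change of -0.49 and all 7 changes below 0. The share called was 57.1%, against 28.4% of all genes. Krt8 and Krt18 encode the type II and type I partners of the filament of simple epithelia. Krt8 read 9.41 and 9.43 on the control RNAi arrays and 8.73 and 8.74 on the Zfp322a RNAi arrays. Krt18 read 8.71 and 8.78 against 7.86 and 7.79. Both partners fell without overlap, Krt8 to 62.2% (-0.69 ± 0.07, adjusted p = 0.00170) and Krt18 to 52.9% of the control level (-0.92 ± 0.07, adjusted p = 0.00117, limma).

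Krt42, a type I keratin, went from 9.46 and 9.66 to 9.03 and 9.11 (-0.49 ± 0.09, adjusted p = 0.0117, limma). Its probe set is of a kind that can cross-hybridize, and the other probe set of Krt42 fell by 0.86, so the size of this fall differed between probe sets while the direction did not. Krt7, a type II keratin of simple epithelia, read 5.72 and 6.14 against 5.41 and 5.33, below the array medians except for 1 control array. Its change of -0.56 ± 0.14 passed the test (adjusted p = 0.0318, limma) but was -0.35 without control RNAi replicate 2. Krt19, a type I keratin of simple epithelia, changed by -0.18 ± 0.07 and did not pass (adjusted p = 0.107), though its arrays did not overlap. The basal keratins of stratified epithelia, Krt5 and Krt14, changed by -0.14 each, with overlap. Krt14 read below the array medians on all arrays (5.18 to 5.50), where a fall may not show, and Krt5 read close to them (6.00 to 6.35). A further probe set shared by Krt14 and Krt17 changed by 0.01.

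Desmosome genes fell in 4 of 6 cases and rose in 0, with a median change of -0.39. The share called was 66.7%, against 28.4% of all genes. The plakophilins link the desmosomal cadherins to desmoplakin. Pkp2 read 9.90 and 9.91 on the control RNAi arrays and 9.09 and 8.94 on the Zfp322a RNAi arrays. Both depleted samples lay below both controls, at 54.0% of the control level (-0.89 ± 0.08, adjusted p = 0.00148, limma). Pkp3 read 7.88 and 7.87 against 7.50 and 7.43 (-0.41 ± 0.07, adjusted p = 0.00853, limma). Dsg2, the desmosomal cadherin of simple epithelia, went from 10.49 and 10.21 to 9.79 and 9.67, again without overlap (-0.62 ± 0.11, adjusted p = 0.0102, limma). Jup (plakoglobin), an armadillo protein of desmosomes and adherens junctions, read 8.18 and 8.09 against 7.74 and 7.79 (-0.37 ± 0.07, adjusted p = 0.0140, limma).

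Dsp and Dsc2 did not pass the test. Dsp (desmoplakin), which ties the plaque to keratin, read 8.70 and 8.69 against 8.92 and 8.83, higher on both Zfp322a RNAi arrays but not past the test (0.18 ± 0.07, 95% interval 0.01 to 0.35, adjusted p = 0.117). The other probe sets of Dsp changed by 0.02 and -0.04, with overlap, so the higher reading rests on the probe set used, which is of a kind that can cross-hybridize. Dsc2, the desmosomal cadherin that pairs with Dsg2, read between 5.07 and 5.34 with overlap, below the array medians, and changed by 0.08 ± 0.11.

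Of the 5 polarity genes, 2 fell, 0 rose and 3 did not pass, where 28.4% of all genes were called, 14.4% as lower. With 5 genes, this count cannot show if polarity genes were called more often than others. Llgl2, a protein of the basolateral side, read 9.51 and 9.57 on the control RNAi arrays and 9.08 and 9.16 on the Zfp322a RNAi arrays (-0.42 ± 0.07, adjusted p = 0.00901, limma). Crb3, the Crumbs protein of the apical membrane, read 7.65 and 7.83 against 7.15 and 7.46 (-0.43 ± 0.12, adjusted p = 0.0463, limma). Its Zfp322a RNAi arrays lay below the controls but apart from each other, and without Zfp322a RNAi replicate 1 the change was -0.28. Array centring ended the call of Crb3 (adjusted p = 0.0535, limma). Rab25, a GTPase of apical recycling, changed by -0.17, and the PAR complex genes Pard3 and Pard6b by -0.07 and 0.29. Of these, Pard6b varied most between the Zfp322a RNAi arrays, at 8.04 and 7.58 over controls of 7.56 and 7.48.

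Of the 7 transcription and splicing factors, which direct epithelial gene programmes, 1 fell and 6 did not pass (14.3% called, against 28.4% of all genes, 14.4% as lower), with a median change of -0.06. Grhl2, a grainyhead-like factor that acts on junction genes including Cldn4, read 7.77 and 7.80 against 7.35 and 6.99. The groups did not overlap (-0.61 ± 0.12, adjusted p = 0.0156, limma), but the 3 dimmer probe sets of Grhl2 changed by -0.06 to -0.13 and did not pass. Grhl3 (-0.06), the epithelial splicing regulators Esrp1 (0.05) and Esrp2 (-0.07), the ETS factor gene Elf3 (0.07) and Trp63 (-0.13), the p63 gene of stratified epithelia, all lay near 0. Ovol2, a zinc finger repressor of mesenchymal genes, changed by 0.29 ± 0.14 with overlapping arrays. Trp63 and Ovol2 read below the array medians on all 4 arrays, where a fall may not show, and Esrp1 read close to those medians (6.05 to 6.26).

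The 4 membrane proteases and inhibitors held 2 genes that fell, 0 that rose and 2 that did not pass. Of all genes, 28.4% were called, 14.4% as lower, and 4 genes are too few to set against these shares. Spint1 (HAI-1), an inhibitor of matriptase, read 9.42 and 9.58 on the control RNAi arrays and 8.83 and 8.75 on the Zfp322a RNAi arrays, or 61.1% of the control level (-0.71 ± 0.08, adjusted p = 0.00287, limma). St14, which encodes matriptase itself, read 9.21 and 9.31 against 8.69 and 8.74, or 68.5% (-0.55 ± 0.07, adjusted p = 0.00423, limma). The protease and its inhibitor both fell without overlap. Spint2 (HAI-2), a related inhibitor, changed by -0.05 ± 0.07 (95% interval -0.22 to 0.11), and Prss8 (prostasin), a protease of the same cascade, by -0.18 ± 0.12. Prss8 read below the array medians on all arrays (5.09 to 5.51), where a fall may not show.

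**Figure D2:**
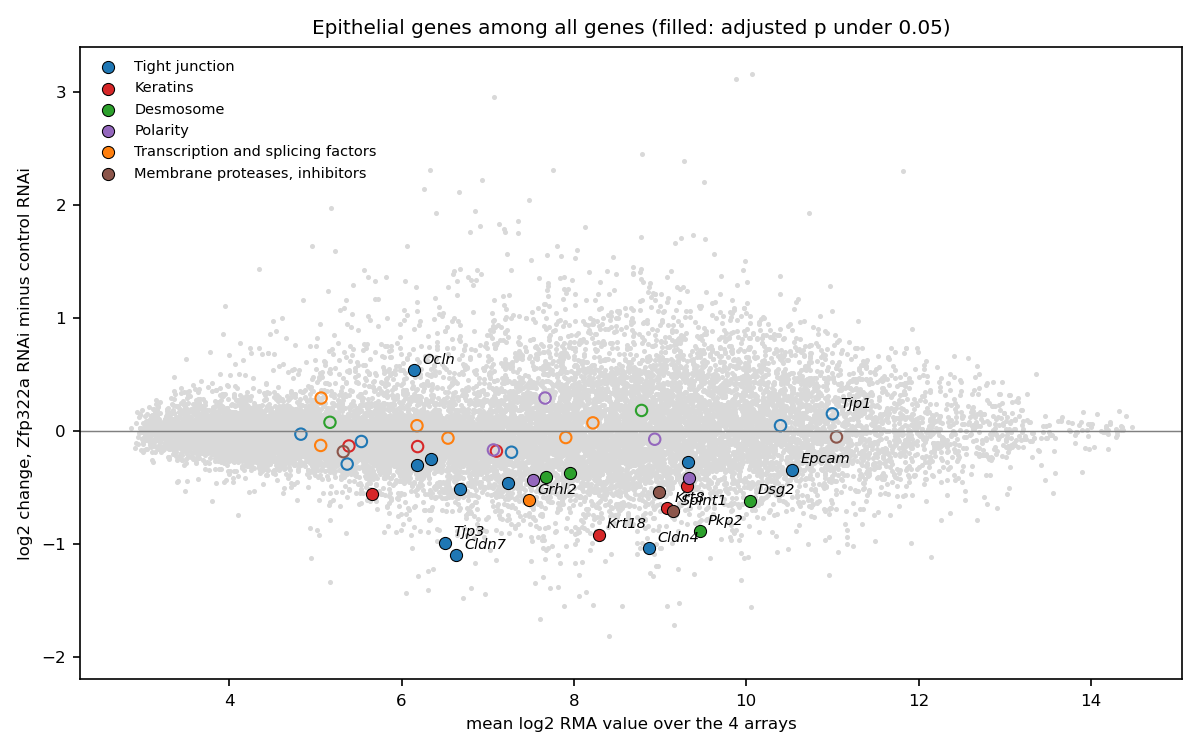
Each grey point is 1 of the 18193 genes, placed by its average log2 RMA value (x axis, 4 arrays) and by its log2 change (y axis); coloured points are the 45 epithelial genes by structure, filled where called. Called genes lie from the dim Krt7 to the bright Epcam, and the deepest falls, Cldn7 (-1.10) and Cldn4 (-1.04), differ in brightness.

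A total of 24 of the 45 genes had more than 1 probe set. In a limma fit on all 45037 probe sets, in which 20.1% passed, 29 of the 90 probe sets of the epithelial genes passed, 28 as lower and 1 as higher. The probe sets used for 20 of the 23 called genes passed there too, and those of Marveld3, F11r and Crb3 did not (adjusted p of 0.0781, 0.0612 and 0.0611). Of the 20, 9 genes had other probe sets, 18 in all, of which 9 passed in the same direction, 9 did not pass and 0 passed in the opposite one. Krt8 was lower on all 3 of its probe sets, Cgn and Krt42 on both, Dsg2 on 4 of 6 and Pkp2 on 3 of 4. For Epcam, Pkp3, Grhl2 and Ocln, by contrast, no further probe set passed. The second probe set of Epcam had the same change as the first, -0.34, with wider spread.

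**Figure D3:**
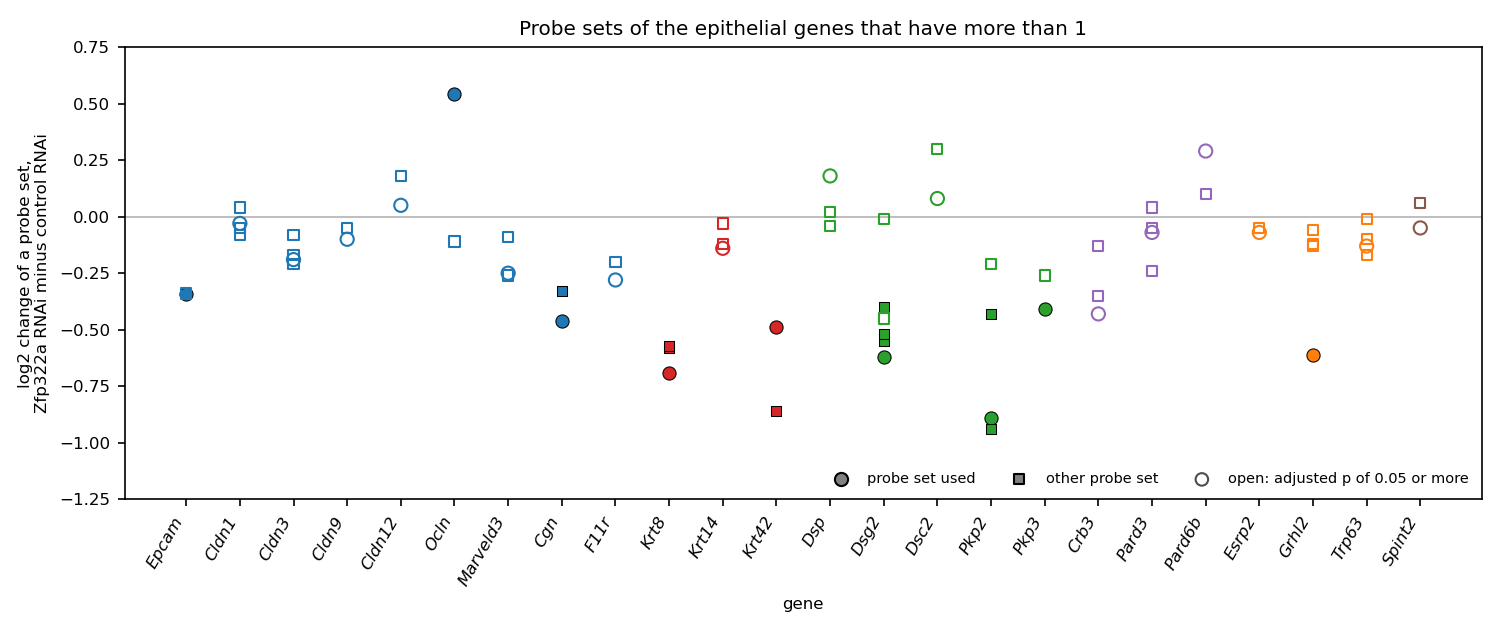
For the 24 genes with several probe sets, the y axis gives the log2 change of each probe set, as a circle for the one used and squares for the others, filled where the adjusted p over all probe sets is under 0.05. All probe sets of Krt8 (-0.69 to -0.57), Dsg2 (-0.62 to -0.01), Pkp2 (-0.94 to -0.21) and Grhl2 (-0.61 to -0.06) lie below 0, while those of Ocln (0.54 and -0.11) lie on either side of it.

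Related genes outside the 45 were counted in the same fit, in which 14% of all genes were called higher and 14.4% lower. The share called in either direction was 25.0% for other tight junction genes, 16% for other keratins and their partners, 26.3% for other desmosome and adherens junction genes, 45.5% for other polarity genes and 41.7% for other epithelial regulators, against 28.4% of all genes. Of 28 other tight junction genes, 5 rose, 2 fell and 21 did not pass (median change 0.00). The adhesion gene Jam3 read 7.34 and 7.26 on the control RNAi arrays and 8.14 and 8.12 on the Zfp322a RNAi arrays (0.83 ± 0.07, adjusted p = 0.00135, limma). The scaffold gene Mpdz changed by 0.66 ± 0.07 and the angiomotin-like genes Amotl2 and Amotl1 by 0.56 ± 0.07 and -0.52 ± 0.07 (adjusted p of 0.00196, 0.00311 and 0.00403, limma). Of 25 other keratins and keratin partners, 1 rose, Krt10 (0.28 ± 0.07), and 3 fell, the cytolinker gene Plec (-0.55 ± 0.07), Krt17 (-0.51 ± 0.07) and Trim29 (-0.41 ± 0.07), while 21 did not pass.

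Of 19 other desmosome and adherens junction genes, 1 rose, 4 fell and 14 did not pass (median -0.03). Those with the lowest p were Perp, a desmosome membrane protein gene (0.62 ± 0.08), the nectin gene Nectin2 (-0.60 ± 0.08), Afdn (afadin, -0.38 ± 0.07) and Ctnna1 (α-catenin, -0.39 ± 0.09), with adjusted p between 0.00379 and 0.0196 (limma). Cdh1, which encodes E-cadherin, read 12.10 and 11.97 against 12.27 and 12.14 and did not pass (0.17 ± 0.08, 95% interval -0.04 to 0.38, adjusted p = 0.199). Ctnnb1 (β-catenin) changed by 0.05 ± 0.07 (interval -0.12 to 0.22). The lower bound for E-cadherin lies above the change of every desmosome gene called lower, though no difference between genes was tested; Cdh1 and Ctnnb1 were named for their part in the adherens junction and not by their p.

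Of 22 other polarity genes, 2 rose, 8 fell and 12 did not pass (median -0.16). Lin7c, a scaffold of the Crumbs complex, had the largest rise, from 9.41 and 9.29 to 10.70 and 10.64 (1.32 ± 0.08, adjusted p = 8.22e-04, limma), and Pard6g the largest fall (-0.74 ± 0.07), followed by Ap1m2 (-0.69 ± 0.10), the epithelial adaptor subunit, and Llgl1 (-0.44 ± 0.07). Of 24 other epithelial regulators, 5 rose, 5 fell and 14 did not pass. The 4 with the lowest p were Foxa1, a forkhead factor of endoderm (1.78 ± 0.11), the surface glycoprotein gene Cd24a (1.08 ± 0.07), Klf5 (-0.72 ± 0.07) and Lgals3 (0.84 ± 0.08).

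**Figure D4:**
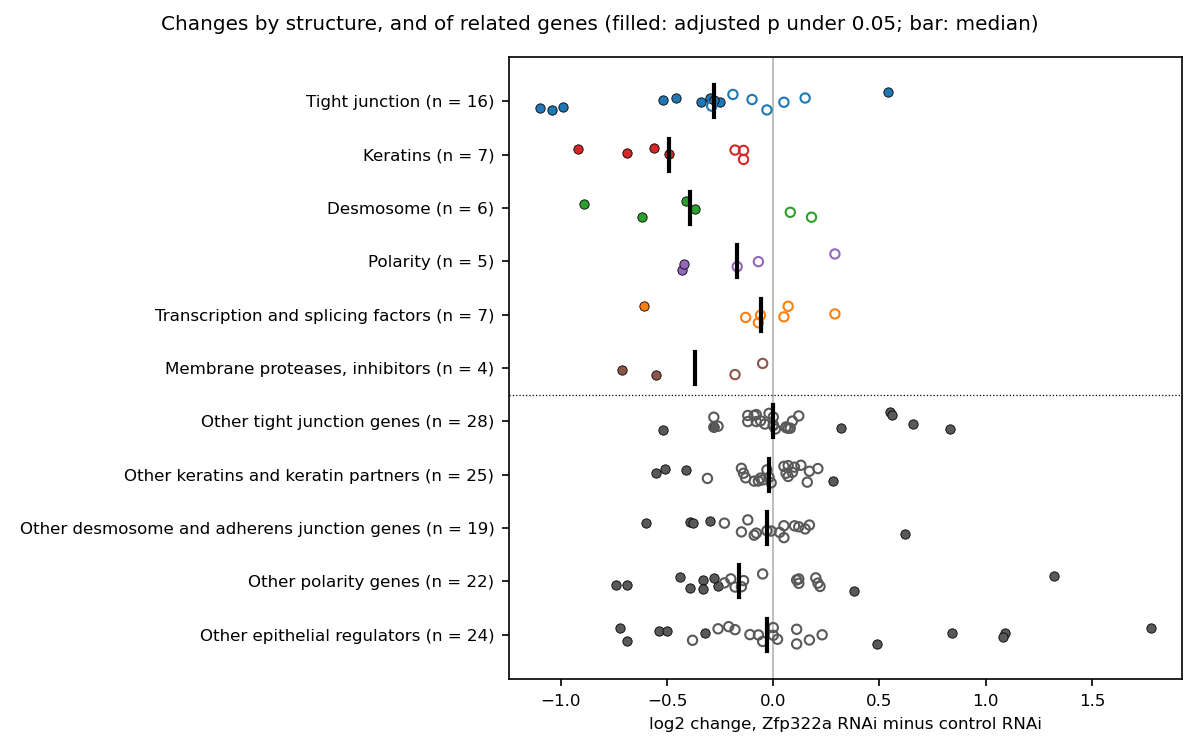
Each point is 1 gene, with its log2 change on the x axis, in rows for the 6 structures (above the dotted line) and for related genes; filled points passed the test and bars are medians. The medians of the structures run from -0.49 (keratins) to -0.06 (transcription and splicing factors), and those of the related lists from -0.16 to 0.00.

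Markers of cell types were counted in the same fit, in which 28.4% of all genes were called. The share called was 75% for extraembryonic endoderm, 30% for mES cells, 22.2% for trophoblast, 18.2% for fibroblasts and feeders and 30% for surface ectoderm and stratified epithelium. Of 12 extraembryonic endoderm markers 8 rose, 1 fell and 3 did not pass, with Gata6 at 1.42 ± 0.08, and the log2 of their summed levels was 11.96 to 12.06 on the control RNAi arrays and 11.99 to 12.03 on the Zfp322a RNAi arrays. All such sums are of linear levels, so that the brightest genes weigh most. In this one it was Sparc, with means of 11.15 and 11.08, which did not pass, so the sum does not show the rise of the dimmer markers. Of 10 mES cell markers 3 fell (Utf1, Tdgf1 and Esrrb) and 7 did not pass, and the summed level went from 15.95 to 15.98 down to 15.81 to 15.82. Of 9 trophoblast markers Gata3 rose, Eomes fell and 7 did not pass, and their summed level was 10.21 to 10.39 against 9.97 to 9.99; Cdx2, a defining factor of that lineage, lay below the array medians throughout. The summed level of the 7 keratins was 11.05 to 11.16 against 10.50 to 10.54.

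Of 11 fibroblast and feeder markers 2 fell and 9 did not pass, with 7 below the array medians on all 4 arrays, Col1a1, Col1a2 and Col3a1 among them, and a summed level of 9.38 to 9.41 against 9.06 to 9.13. Of 10 surface ectoderm and stratified epithelium markers 2 rose, 1 fell and 7 did not pass, with 7 below the array medians and a summed level of 9.73 to 9.75 against 9.96 to 9.99. Perp and Krt10, the brightest of this list, both rose and weigh most in that sum. Trp63, Krt5 and Krt14 belong both to this list and to the 45 genes. Krt10 and Perp, which rose here, are also counted among the other keratins and the other desmosome and adherens junction genes. The other epithelial regulators share Cdh1 and Ap1m2 with further related lists, and Gata3 and Foxa2 with the marker lists. The counts of the lists are therefore not independent. What part a shift in cell types had in the changes of the epithelial genes was not tested.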

How the data were processed

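Total RNA of 4 samples was hybridised to Affymetrix MG430 2.0 arrays. The authors processed the arrays with RMA (version not given in the sources used here) and deposited log2 values for 45037 probe sets (2.62 to 14.61), used here as deposited. Because RMA makes the array distributions alike, a shift of all genes in 1 direction would not appear.

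Names of probe sets came from the platform annotation: 34945 had a single symbol, 932 several and 9160 none. Symbols were updated through Entrez identifiers to RefSeq GRCm38.p6 (34741 matched). Promoter coordinates are those of GRCm38.p6, while the arrays name no build.

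Groups came from the sample titles. A model with group alone (lmFit, then eBayes, in limma 3.58.1 and R 4.3.3) was fitted to all genes. It was also run on simulated data, whose noise was drawn from that same fit, so this run cannot show how the real samples vary. An exact permutation test of 1 gene cannot go below 0.333 with 2 arrays against 2. Precision is limited by the number of arrays (median SE of a change 0.08). The median change over all genes was -0.04.

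The genes described and all lists were chosen with earlier results of these data known. Up to 6 called genes a structure, by lowest p, have array values, as do some others, chosen after their values were seen. Of each other list, up to 4 called genes are named by lowest p. Cdh1, Ctnnb1 and the cell type markers are named for their roles. Alternatives covered array centring, quantile normalization, dim genes, the choice of probe sets, a variance trend, a replicate block, the 1.5-fold rule and leaving out each sample.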

Additional observations from a re-analysis of the deposited data

How the results depend on the processing

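All 23 called epithelial genes kept their direction in every alternative that measured them. Of the 22 genes called lower, 19 were called under array centring, 21 each under quantile normalization, the mean of all probe sets, a variance trend and without cross-hybridizing probe sets (where Jup had none left), and all 16 still measured with dim genes left out. Array centring ended the calls of Marveld3, F11r and Crb3, quantile normalization and the variance trend that of Marveld3, and the mean of all probe sets those of Marveld3 and Ocln. The count called higher was 0 with that mean and 2 with the variance trend, where Tjp1 passed. With the mean, Grhl2 changed by -0.23 (adjusted p = 0.0413), and without cross-hybridizing probe sets Krt42 changed by -0.86. The 1.5-fold rule, which has no test, gave 0 higher and 9 lower, 11 of the 90 probe sets, and 919 higher and 582 lower of all genes.

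Leaving out any 1 sample left 0 calls at the adjusted threshold, among the epithelial genes (0 lower, 0 higher), their probe sets (0) and all genes (0 higher, 0 lower), with limma. At an unadjusted p under 0.05, 18 to 25 of the 45 genes passed, against 26 with all samples, and 5147 to 5768 of all genes, against 7184. The lowest adjusted p of an epithelial gene was then 0.0793 to 0.0966. Both arms are then assumed to vary alike, with a lone sample in 1 of them. Krt7 changed by -0.35 without control RNAi replicate 2, and Crb3 by -0.28 without Zfp322a RNAi replicate 1.

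Sample numbers are shared by the groups in the titles. The deviations of same-numbered arrays correlated at 0.041 over genes. This value rests on a lone difference in each group, so it cannot show if same-numbered samples shared a culture or a day of work. With the replicate block 13 genes were called lower, 1 higher, 0 of their probe sets, and 1493 higher and 1163 lower of all genes. The calls of Epcam, Cldn5, Marveld3, Cgn, F11r, Krt7, Jup, Crb3 and Grhl2 ended.

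Median changes without any 1 sample ran from -0.30 to -0.21 for the 45 genes, -0.30 to -0.26 for tight junction genes, -0.59 to -0.35 for keratins, -0.42 to -0.37 for desmosome genes, -0.23 to -0.11 for polarity genes, -0.13 to 0.00 for transcription and splicing factors and -0.45 to -0.29 for proteases and inhibitors. With dim genes left out they were -0.37 (all), -0.59 (keratins) and -0.55 (proteases and inhibitors). With the mean of all probe sets they were -0.20 (all), -0.56 (keratins) and -0.35 (desmosome), and without cross-hybridizing probe sets -0.56 (keratins). Array centring gave -0.26 (tight junction) and -0.36 (desmosome). The cause of these shifts was not tested.

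Signs turned only for genes that did not pass. When 1 sample was left out, the changes ran from -0.13 to 0.06 for Cldn1, -0.28 to 0.00 for Krt14, -0.06 to 0.21 for Dsc2, -0.06 to 0.15 for Esrp1, -0.16 to 0.02 for Esrp2 and -0.13 to 0.00 for Grhl3. Spint2 changed by 0.01 when its probe sets were averaged and by 0.06 without cross-hybridizing ones. Marveld2 passed with the mean of all probe sets (adjusted p = 0.0461), and Krt19 and Dsp with dim genes left out (0.0277 and 0.0332).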
